A study of Mus musculus with 3 samples.

Results

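Hmox1 encodes heme oxygenase 1, the inducible enzyme that breaks heme down to biliverdin, carbon monoxide and iron. Its mouse gene is known for 2 distal upstream enhancers, named E1 and E2, of which E1 lies nearer to the gene. Both carry repeated antioxidant response elements, which Nrf2 binds together with a small Maf partner (MafF, MafG or MafK). The repressor Bach1 uses the same partners at the same elements and leaves them when heme is abundant. Under basal conditions Keap1 directs Nrf2 to degradation, and electrophiles modify Keap1 so that Nrf2 accumulates.

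The sites described here are all summits of MafG chromatin immunoprecipitation sequencing (ChIP-seq) within 50 kb of the Hmox1 start of transcription. A summit is the base of highest signal in a peak called by the authors. The start was taken as position 77617500 of chromosome 8 (mouse build mm9, plus strand), a rounded position, so distances to it are approximate while distances between summits are not. The window ran from 77567500 to 77667500. It held 4 of the 1428 summits in all. Of these, 2 belonged to the list of vehicle-treated cells and 2 to the 1246 summits of the list from cells given diethyl maleate (DEM). The locus was chosen on the scores and ranks of these same lists, where it was already known to stand first, so its scores, ranks and spacing are a description and support nothing further.

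The study used mouse embryonic fibroblasts deleted for MafF, MafG and MafK (MafF-/-::MafG-/-::MafK-/-) that carry a tethered Nrf2-MafG construct, written T-N2G in the titles and T-NG2 in the genotype field. Both lists come from these cells, 1 library after vehicle and 1 after 100 µM DEM for 4 hours, and an input library makes the third of the series. DEM reacts with cellular thiols, lowers glutathione and is widely used to activate Nrf2. Because all 3 small Maf genes are deleted in both groups, the tethered protein is the remaining source of MafG sequence that the labels give. The sources used here do not give the promoter that drives the construct or whether the cells are 1 clone. There is no library from cells without the construct, so the level of MafG antibody signal that does not depend on it was not tested.

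Both lists held MafG antibody signal at the same pair of positions upstream of Hmox1 (plot of summits in the window). The summit nearer to the gene, called proximal here, lay at 77613636 with vehicle and at 77613645 with DEM. These positions are 3864 and 3855 bp upstream of the start. The distal summit lay at 77607890 with vehicle, 9610 bp upstream, and at 77607874 with DEM, 9626 bp upstream. Any pair of upstream summits has 1 nearer and 1 farther, so this order does not link the summits to E1 and E2. The boundaries of those enhancers were not available here, so the overlap was not tested. Summits record binding signal, and enhancer activity or Hmox1 expression was not measured in these libraries.

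**Figure D1:**
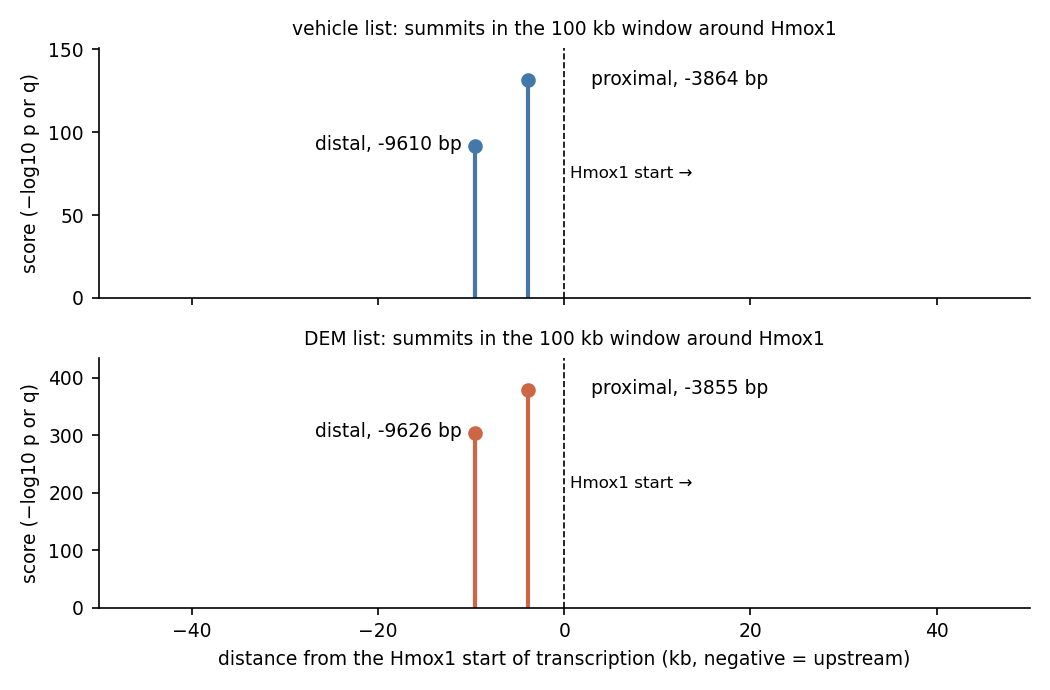
Summits within 50 kb of the Hmox1 start of transcription in the vehicle list (top) and the DEM list (bottom). The x axis is the distance from the start in kb, each stem is 1 summit, its height is the authors' score (−log10 of a p or q value, with a separate scale in each panel), and each label gives the position in bp. Both lists hold 2 upstream summits, the proximal one scoring higher, and none at the start or downstream.

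The rest of the window was empty in both lists. Between the 2 summits, from the window's start to the distal summit, and from the proximal summit to the window's end, 0 summits were called in either list. The stretch without calls thus included the start of transcription and all 50 kb downstream of it. A base without a summit is one where no peak reached the authors' threshold at an unknown read depth, not one shown to be unbound. No summit lay near the edges of the window. The nearest DEM summit outside it on the upstream side stood at 75517333 (score 16.5, rank 573), 2.09 Mb from the distal summit. On the downstream side it stood at 80634322 (score 182.5, rank 24), 3.02 Mb from the proximal summit.

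The vehicle list gave the same downstream neighbour, at 80634331 (score 30.8, rank 24). Its upstream neighbour, at 70331033 (score 11.4, rank 86), was 7.28 Mb away. The Hmox1 pair was therefore the only call on a stretch of chromosome 8 that measured 5.12 Mb with DEM and 10.3 Mb with vehicle. Such gaps were not unusual for these lists. Of the 1226 gaps between neighbouring DEM summits, 72.3% were shorter than the upstream gap and 80.2% shorter than the downstream one. Of the 162 vehicle gaps the shares were 46.3% and 27.2%, the median vehicle gap being 8.41 Mb against 0.911 Mb in the DEM list.

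In the RefSeq annotation of GRCm38.p6, used here for gene order alone, the genes on the side of lower coordinates are the pseudogene Gm2059, then Tom1, which encodes an endosomal sorting adaptor, then Hmgxb4. On the other side follow Mcm5, a subunit of the replicative helicase, and Rasd2. As Hmox1 is on the plus strand, the summits lie on the Gm2059 and Tom1 side. Whether either summit falls inside a transcript in mm9 was not tested. Hmox1 was taken as the gene of these summits because the window was drawn around it, and contact between the sites and any promoter was not measured.

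The scores describe each list separately, since a score rises with read depth as well as with enrichment. The proximal summit scored 131.2 with vehicle and 378.4 with DEM, and ranked 1 each time. The distal summit scored 91.9 with vehicle and 303.9 with DEM, and ranked 3 each time. Median scores over all summits were 10.6 with vehicle and 15.2 with DEM. The pair was thus already at the top of the calls made without DEM.

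In the vehicle list, the summit between them in rank lay on chromosome 5 at 125870649 (score 102.5). The summit just below the distal one lay on chromosome 2 at 167590855 (score 91.7), only 0.234 score units lower. In the DEM list, the rank between them was held by chromosome 11 at 75197198 (score 310.7), and chromosome 3 at 107626355 (score 292.4) followed, 11.5 units below the distal summit. The step from the proximal summit to the next score was 28.7 units with vehicle and 67.7 units with DEM. In each list this was the largest step between successive scores. The distal summit had no such distance to its neighbours, so its rank rests on small differences, and with 1 library per condition the error of these steps is unknown.

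**Figure D2:**
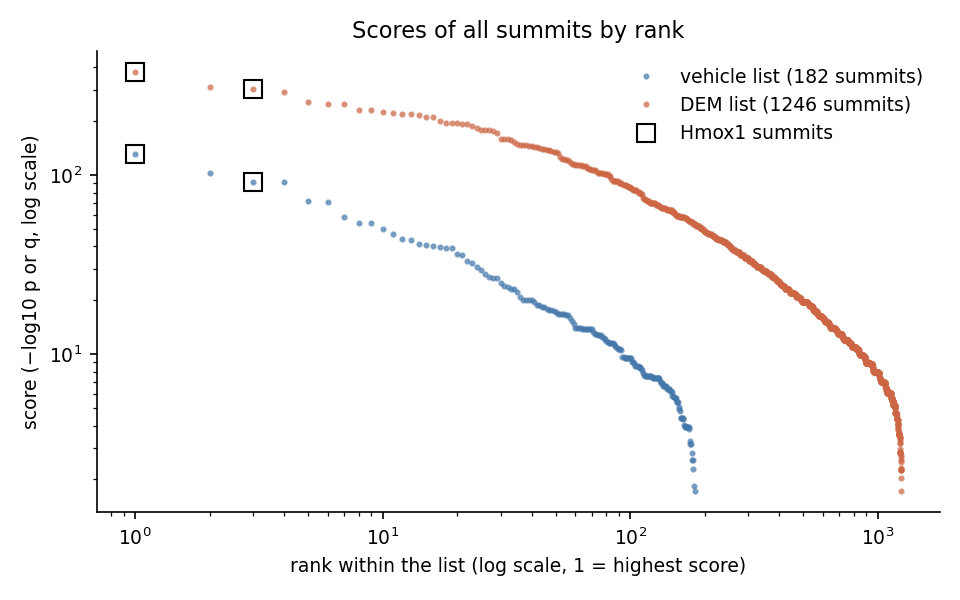
Score (−log10 of a p or q value, log scale) of every summit against its rank within its list (log scale) for the vehicle list (lower curve) and the DEM list (upper curve, 1246 summits), with squares around the Hmox1 summits. The squares stand at ranks 1 and 3 of both lists. The vertical offset between the lists can come from read depth as well as from enrichment, so it does not measure a change in binding.

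The summits around the pair in rank did not keep their places between the lists. Among the 180 sites shared by the lists (a summit in each within 100 bp), the chromosome 5 site that was second by vehicle score ranked 17 by DEM score. The chromosome 11 site that was second by DEM score ranked 7 by vehicle score. Of the 180 shared sites, 7 had the identical rank in both orders, and 2 of these 7 were the Hmox1 summits at ranks 1 and 3. The third of the 7 by rank was on chromosome 11 at 100060177 (rank 18). Hmox1's downstream neighbour on chromosome 8 at 80634331 was another (rank 23 among shared sites). Of the 3 highest shared sites in each order, 2 were in both sets, and these were the Hmox1 summits. As the locus was chosen for its place in these same lists, its kept ranks restate that choice and are no measure of stability.

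On chromosome 8 itself the pair took the first 2 ranks in both lists. The vehicle list held 10 summits on this chromosome and the DEM list 69, which was 5.49% and 5.54% of the respective list. All 10 vehicle summits on it had a DEM counterpart. The next score on the chromosome after the Hmox1 pair was 30.8 with vehicle and 182.5 with DEM, both at the downstream neighbour described above.

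Both Hmox1 summits of each list had a counterpart in the other list within 100 bp. For vehicle summits this was the rule, as 98.9% of that list were matched. Of the DEM list 14.4% were matched, but the 10 highest DEM scores were all matched, and 88 of the 100 highest. For sites of this rank, a counterpart was therefore the common case and not a mark of Hmox1.

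The lists placed each summit within a few bases of the same point. The proximal DEM summit stood 9 bp from the vehicle one, toward the gene, and the distal DEM summit stood 16 bp from the vehicle one, away from the gene. Across the 180 shared sites the median distance was 17.5 bp, with quartiles of 6 and 34.25 bp. Of these sites, 53 were closer than the proximal summit's 9 bp and 83 closer than the distal summit's 16 bp. The 2 shifts were in opposite directions and inside the ordinary spread of summit placement, so no move of either site with DEM was detectable.

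**Figure D3:**
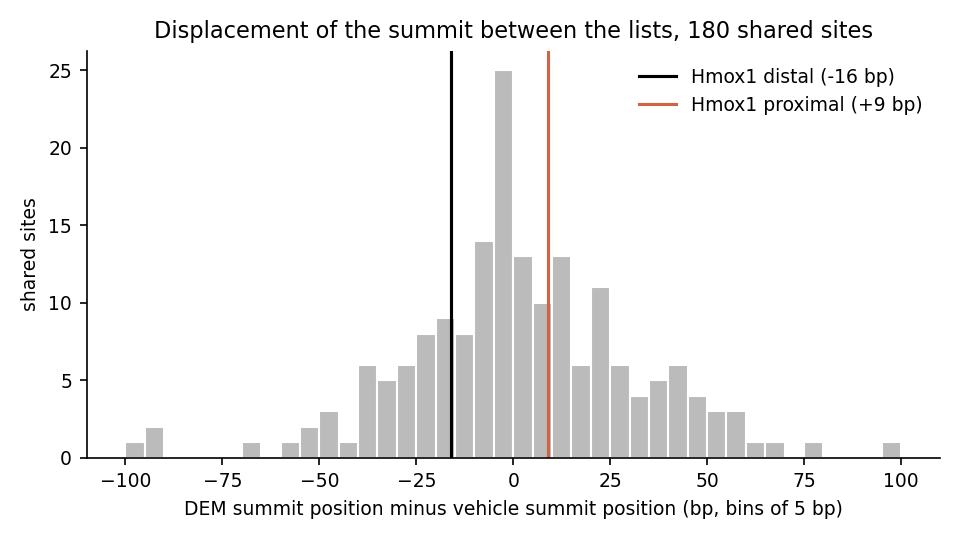
Number of shared sites (y axis, of 180) by the DEM summit's position minus the vehicle summit's position (x axis, bp, bins of 5 bp). The vertical lines mark the distal Hmox1 summit (-16 bp) and the proximal one (9 bp), both in the body of the distribution, whose median absolute distance is 17.5 bp.

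The spacing of the pair was 5746 bp with vehicle and 5771 bp with DEM, a difference of 25 bp that sums the shifts above. In the vehicle list these were the only 2 summits with another summit within 10 kb, 1.10% of that list. In the DEM list 77 summits, or 6.18%, had such a neighbour, and they formed 42 neighbouring pairs. Closeness alone did not set the Hmox1 pair apart in the DEM list, where 30 of the 42 pairs were closer than 5771 bp and the median spacing was 3132.5 bp.

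The pairs differed in the scores of their partners. The lower score of the Hmox1 pair was 303.9, and in the other 41 DEM pairs the lower score had a median of 8.92 and a highest value of 70.1. That highest value belonged to a pair on chromosome 16 at 14351036 (score 70.1, rank 121) and 14352894 (score 159.3, rank 30), 1858 bp apart. The third pair by lower score lay on chromosome 19 at 5848175 (score 106.5, rank 71) and 5850350 (score 42.5, rank 243), 2175 bp apart. In each of these 2 pairs 1 summit had a vehicle counterpart. Of the 42 pairs, the Hmox1 pair was the only one with both summits among the 100 highest DEM scores and the only one with both summits matched. The vehicle list held no other pair within 10 kb, so being the only pair matched at both summits restates that count. As the locus was chosen with its scores known, its place among the 100 highest and its first place by lower score are descriptions. The ranks of 1 and 3 of the Hmox1 summits leave no other pair a higher lower score.

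**Figure D4:**
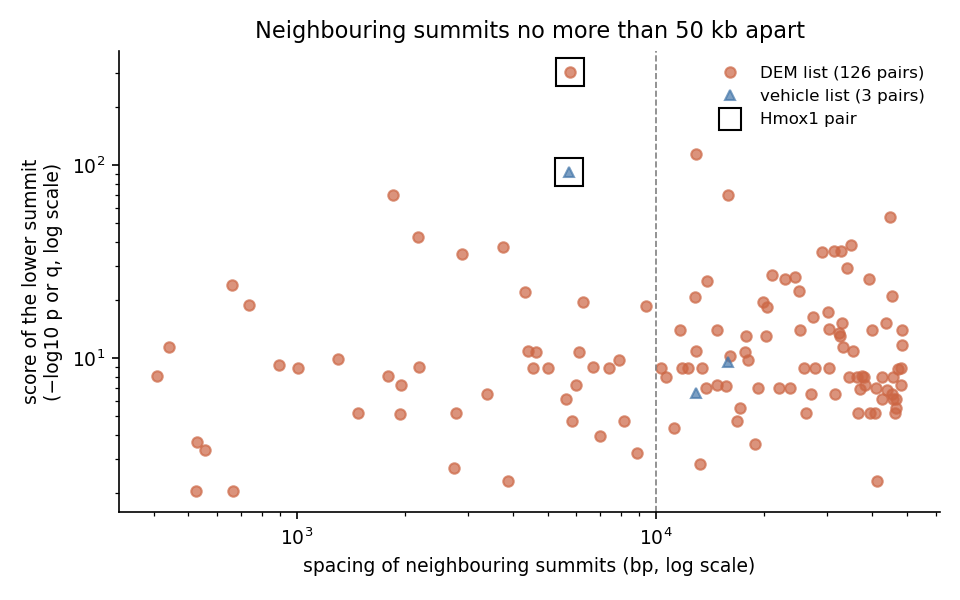
Score of the lower summit (−log10 of a p or q value, log scale) against the spacing (bp, log scale) for neighbouring summits no more than 50 kb apart, with 126 pairs in the DEM list (circles) and 3 in the vehicle list (triangles). Squares mark the Hmox1 pair, which has the highest lower score in both lists (91.9 and 303.9), and the dashed line marks 10 kb.

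Widening the distance to 50 kb gave 126 DEM pairs and 3 vehicle pairs, and all 3 vehicle pairs were also pairs in the DEM list. Hmox1 was 1 of the 3. Another, on chromosome 1, stood at 45917385 (score 141.7, rank 43) and 45930305 (score 113.2, rank 64) in the DEM list. Its spacing was 12920 bp with DEM and 12886 bp with vehicle, where its scores were 26.7 and 6.60. The last, on chromosome 16, stood at 95162340 (score 177.8, rank 27) and 95178256 (score 69.8, rank 124) with DEM. Its spacing was 15916 bp with DEM and 15837 bp with vehicle, where its scores were 13.3 and 9.55.

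In all 3 pairs the summit that scored higher with vehicle also scored higher with DEM. At Hmox1 the proximal summit led the distal one by 39.3 units with vehicle and by 74.6 units with DEM. Score units depend on read depth and are not on 1 scale between the lists, so these leads do not show a widening with DEM. The spacing changed between the lists by 25 bp at Hmox1, 34 bp on chromosome 1 and 79 bp on chromosome 16. The chromosome 1 pair was, besides Hmox1, the only one of the 126 with both summits among the 100 highest DEM scores. By vehicle score, the chromosome 1 summits ranked 28 and 140 and the chromosome 16 summits 71 and 95, against 3 and 1 for the distal and proximal Hmox1 summits. Of the 3 vehicle pairs, those at Hmox1 and on chromosome 16 thus had both summits among the 100 highest vehicle scores.

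How often strong summits had a second summit nearby depended on the distance. Of the 10 highest DEM summits, 2 had another DEM summit within 10 kb, and these were the Hmox1 summits, each the other's neighbour. Within 50 kb 3 of the 10 had one, and within 100 kb 5 of the 10, of which 3 were not at Hmox1. The other 8 had their nearest neighbour between 0.0274 and 0.937 Mb away, with a median of 0.310 Mb. Of the 100 highest DEM summits, 5 had a neighbour within 10 kb, a share near the 6.18% of the whole list. Within 50 kb the number was 16, and within 100 kb it was 30. The shares of the whole DEM list at 50 and 100 kb were not computed, so these counts have no background beside them. A window of 50 kb either side of each of the 100 highest DEM summits held that summit alone in 84 cases, 2 summits in 13 and 3 summits in 3. In the vehicle list 95 of the 100 such windows held a single summit and 5 held 2. Over the whole vehicle list, 3.30% of summits had a neighbour within 50 kb. A window with 2 summits was therefore a minority case in both lists. Those centred on the Hmox1 summits were 2 of the 13 in the DEM list and 2 of the 5 in the vehicle list. In each list these are 1 pair, counted from each of its summits.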

How the data were processed

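Summit lists of 1 vehicle and 1 DEM library were used, while the input library was not analysed here. Per the submitters' processing notes, the tools were MACS2 2.1.1.20160309, Bowtie2 2.2.9 and bcl2fastq 2.16.0.10, and the build was mm9. The authors deposited, for each summit, a −log10 value of a p-value or q-value as its score (the sources used here do not say which of these, nor the threshold, the handling of duplicates or the use of the input). The read depth is unknown, and scores were ranked only within a list. Positions are 1-based. Groups follow the sample titles. Neighbouring summits were paired by distance on a chromosome. The code was tested on lists with planted pairs and matches.

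With 1 library per condition, no test was made and no value has a replicate error. The window and the comparisons were chosen with earlier results of these data known. Besides the Hmox1 summits, the rule for named sites took those adjacent in rank, the nearest outside the window and the 3 DEM pairs within 10 kb with the highest lower score. Pairs called in both lists within 50 kb, and shared sites of identical rank, were named after their values were seen. The start of Hmox1 is the rounded mm9 position that defined the window. Other genes of heme breakdown and its regulators were not placed against the summits, since no mm9 annotation was used here. Alternatives changed the window, score minimum, match distance, pair distance, list length and ranking. The scripts used pandas 2.3.3 and numpy 2.4.6 under Python 3.11.15, and figures were drawn with matplotlib 3.10.9.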

Additional observations from a re-analysis of the deposited data

How the results depend on the processing

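Of 66 alternative values, 45 lay within 1.5 times the reported one (ranks: were equal to it) and 21 did not. All were counts or ranks, which have no direction to reverse. Many of the 45 could not have changed, for the reasons given below, so the tally does not measure robustness. Windows of 10 kb to 1 Mb either side and score minimums of 10 and 20 kept 2 Hmox1 summits in each list. These settings could not change the count. The nearest other summit in either list lay 2.09 Mb from the pair, and the lowest Hmox1 score was 91.9. Of the 2 Hmox1 summits, 1 kept its counterpart when matches had to lie within 10 bp, since the distal summits stand 16 bp apart. Match limits of 50 to 500 bp could not change the matches, nor could a DEM list cut to the vehicle list's length. Ranks among shared sites or after joining summits within 500 bp could not change either. In each list the summit between the pair in rank was matched and had no neighbour that close. On chromosome 8 alone the distal summit ranked 2 in both lists. Counts of close pairs move with distance by construction. Distances of 2, 20 and 50 kb gave 16, 68 and 126 DEM pairs against 42 at 10 kb. In the vehicle list 2 and 5 kb left 0 pairs, and 20 and 50 kb gave 3, against 1. Score minimums of 10 and 20 left 15 and 7 DEM pairs. The Hmox1 pair had the highest lower score under every pair setting wide enough to hold it, while 2 and 5 kb are narrower than its spacing. Its ranks of 1 and 3 in each list fixed this in advance, as they leave no other pair a higher lower score. Summits with a neighbour within 50 kb numbered 16 of the 100 highest DEM scores, 3 of the 10 highest, 10 of the 50 highest, and 33 when as many DEM scores were taken as the vehicle list is long. With neighbours within 10 and 100 kb they numbered 5 and 30. In the vehicle list there were 5 of 100, then 2 and 3 of the 10 and 50 highest, and 2 within 10 kb. No paired analysis was possible because vehicle and DEM have a single library each, so no replicate could be left out either. The unknown depth limits every absence of a call.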
